A study of Mus musculus with 4 samples.

Results

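The 10 genes described here encode the core of the cytosolic and mitochondrial defence against peroxides and superoxide. They are Gclc and Gclm, which encode the enzyme that starts glutathione synthesis, Gsr and Txnrd1, the reductases of glutathione and thioredoxin, Txn1, cytosolic thioredoxin, the peroxidases Prdx1, Gpx1 and Gpx4, and the superoxide dismutases Sod1 and Sod2. They were chosen by name for their roles in the pathway, by a rule that uses no measured value but with earlier results of these data known, and make up 10 of the 50600 genes listed in each count table.

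RNA was sequenced from mouse T helper 17 (Th17) cells, a CD4+ T-cell type defined by secretion of IL-17, differentiated as primary cells of strain C57BL/6NJ. There was 1 group of 4 libraries, biological replicates 1 to 4, with no control or treated group, so the comparisons are between genes within a library and between the 4 libraries. The labels give no genotype or treatment beyond the strain and the differentiation and list age as unknown, sex as not collected and a single donor identifier for separate biosamples, so spreads and p-values measure only the differences between these 4 preparations. The output names in the file headers carry a tag of 16 hr that the labels do not explain.

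The libraries held 24696730 to 37025016 fragments counted on genes. All 11 markers of Th17 and CD4 T cells reached 10 TPM in every library (transcripts per 1000000, computed here from the counts and each gene's summed exon length). Of 20 markers of B, myeloid, CD8, NK and erythroid cells none reached 10 TPM in every library, 10 had no fragment, and their summed level was 15.9 to 22.6 TPM. The CD8 and NK markers alone summed to 14.2 to 22.1 TPM. Nkg7 was the highest, at 13.4, 8.21, 11.9 and 12.3 TPM in replicates 1 to 4. Cd8b1 came next, at 5.89 to 8.61 TPM. Replicates 3 and 4 stood apart from replicates 1 and 2 in the X-inactivation transcript Xist (0.687 and 0.721 against 186 and 161 TPM) and in the Y-linked Ddx3y (88.6 and 83.2 against 0.442 and 0.446 TPM). That is the pattern of female cells in replicates 1 and 2 and of male cells in replicates 3 and 4, though the labels do not give sex. The single donor identifier therefore does not read as 1 animal, and spreads over the 4 libraries include this difference. The members are given library by library, so that this split can be followed.

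Glutathione is assembled from glutamate, cysteine and glycine, and its first bond is made by glutamate-cysteine ligase, a catalytic subunit (Gclc) paired with a modifier subunit (Gclm). Glutathione peroxidases and peroxiredoxins spend glutathione or thioredoxin to reduce peroxides, and glutathione reductase and thioredoxin reductase restore them with electrons from NADPH, while superoxide dismutases supply the peroxide by disposing of superoxide. In T cells, Gclc and the thioredoxin system are known to be needed for growth after activation, and Gpx4 is known to protect against lipid peroxidation and the death called ferroptosis.

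Expression of most of the 10 genes was high for this transcriptome, and their levels spanned a wide range. The highest member, Txn1, was 53, 55.1, 50 and 61.6 times the lowest, Gclm, in replicates 1 to 4. All 10 members reached 10 TPM in every library, where 33.9% of 21764 protein-coding genes did, and 6 of the 10 reached 100 TPM in every library, where 8.72% of protein-coding genes did. With longest coding transcripts as lengths it was 5 members, and with lengths free of shared words, chosen after the data were seen, 7. Together they held 3521, 3637, 3610 and 3674 TPM in replicates 1 to 4, or 0.361% ± 0.0065 of all TPM (SD, n = 4). The median member stood at 151.9 TPM, against 26 TPM for the 11170 genes detected at 1 TPM or more in every library. Gclm, with a mean of 21.7 TPM, lay below that median, above 45.7% of those genes. Of the 21764 protein-coding genes used for the shares above, 8004 had no fragment. In bulk RNA, fewer cells expressing a gene and less of its RNA per cell cannot be told apart.

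By mean level the order was Txn1, Sod1, Gpx1, Prdx1, Txnrd1, Gsr, Sod2, Gpx4, Gclc and Gclm. For 8 of the 9 pairs of neighbours in this order the higher gene was higher in all 4 libraries and the ranges did not overlap. The exception was Gpx1 and Prdx1. With 4 libraries the exact two-sided sign-flip test cannot give a p below 0.125, so no difference could pass 0.05 in it, and the statements on order rest on the number of libraries and the ranges. For the 8 pairs the exact test gave that smallest p, or 0.141 after Benjamini-Hochberg adjustment over the 9 pairs. The order depended in part on the gene length: with longest coding transcripts Gpx4 came before Gsr, and Sod2 came below Gpx4 and Gclc (Sod2 minus Gpx4 -1.22 on the log2 scale). The longest coding transcript of Sod2, 5861 bases in GENCODE M21, exceeds the 3824 bases of exons on which its fragments were counted. Its length on that scale thus holds bases without counts, so the fall of Sod2 there cannot be read as a lower level. With lengths free of shared words Sod1 came before Txn1 (Txn1 minus Sod1 -0.09), Prdx1 before Gpx1, and Gpx4 before Gsr and Sod2.

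**Figure D1:**
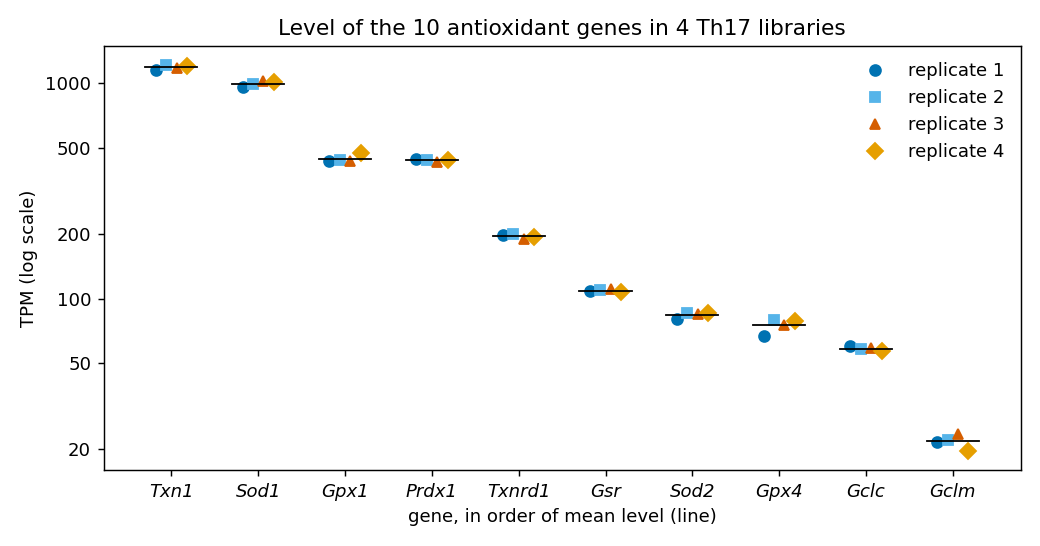
Level of the 10 genes in each library, in TPM on a log axis, with 1 point per replicate and a line at the mean, ordered from the highest to the lowest mean. Txn1 and Sod1 lie between 957.6 and 1213 TPM, Gpx1 and Prdx1 overlap between 428.7 and 471.9 TPM, and Gclm is lowest at 19.6 to 23.5 TPM.

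The catalytic subunit of glutamate-cysteine ligase was more abundant than the modifier subunit, and Gclm was the lowest of the 10 genes under each of the lengths tried. Gclc (ENSMUSG00000032350.9, chromosome 9, 77754535 to 77794485, mm10, plus strand) had 60.19, 58.41, 58.98 and 56.88 TPM in replicates 1 to 4. Its mean was 58.61 ± 1.38 TPM (SD, n = 4), above 70.4% of detected genes. The 4 libraries lay close together, and the CV of 2.35% was near the 2.18% that counting alone gives for 1612 to 2468 fragments.

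Gclm (ENSMUSG00000028124.15, chromosome 3, 122245557 to 122270732, plus strand) had 21.68, 22.01, 23.51 and 19.6 TPM, a mean of 21.7 ± 1.61 TPM (SD, n = 4). Replicate 3 was the highest and replicate 4 the lowest, and the CV of 7.42% was the largest of the 10 genes, against 2.78% from counting. Gclc exceeded Gclm in all 4 libraries, by 1.395 ± 0.086 on the log2(TPM + 1) scale (SD, n = 4; exact two-sided sign-flip p = 0.125). The ratio of their TPM lay between 2.51 and 2.9 and was lowest in replicate 3. A stretch of 3.88% of the Gclm exons is shared on the same strand with Gm6061, and fragments there could have been counted for neither gene or for the other.

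Gss, glutathione synthetase, which adds glycine in the second step, averaged 16.5 ± 0.185 TPM (SD, n = 4), and Gclc was 3.44 to 3.63 times as abundant as Gss in the 4 libraries. With longest-transcript lengths the difference on the log2(TPM + 1) scale was 0.37, against 1.77 as reported. Of the 13 genes listed for glutathione synthesis, breakdown and thiol transport, 5 reached 10 TPM in every library. The highest were Slc3a2, the heavy chain of amino acid transporters, at 241 ± 5.47 TPM, Slc25a39, the mitochondrial glutathione carrier, at 194 ± 5.47 TPM, Abcc1, an exporter of glutathione conjugates, at 34 ± 1.04 TPM, and Chac2, a glutathione-degrading cyclotransferase, at 17.7 ± 1.53 TPM (SD, n = 4 each). Slc7a11, the light chain that with Slc3a2 forms the cystine importer, was the lowest of the list: 7 fragments were counted in the 4 libraries together, and 3 fragments in the shallowest library would be 0.0294 TPM. Thus the carrier's heavy chain was among the abundant transcripts and its cystine-specific light chain was barely detected.

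Gsr, glutathione reductase, and Txnrd1, cytosolic thioredoxin reductase, were both above 100 TPM. Gsr (ENSMUSG00000031584.16, chromosome 8, 33652523 to 33698163, plus strand) had 108.4, 109.2, 110.7 and 107.7 TPM. Its mean was 109.0 ± 1.3 TPM (SD, n = 4), and its CV of 1.19% was the smallest of the 10 genes and below the 1.87% from counting alone. The spread of Gsr between libraries was within counting error at this depth.

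Txnrd1 (ENSMUSG00000020250.10, chromosome 10, 82833951 to 82897712, plus strand) had 196.4, 200.1, 190.1 and 192.7 TPM, a mean of 194.8 ± 4.38 TPM (SD, n = 4). All 4 libraries were within a narrow range. Gsr was lower than Txnrd1 in every library, by 0.83 ± 0.041 on the log2(TPM + 1) scale, a ratio of 0.546 to 0.582 (exact two-sided sign-flip p = 0.125). The exon model of Txnrd1 is 7086 bases long and its longest coding transcript 3622 bases. With the lengths of the longest coding transcripts the Gsr to Txnrd1 difference was -1.75 on the same scale.

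Txnrd1 is a selenoprotein, in which a UGA codon is read as selenocysteine. The codon is shown here and below for the 3 selenoproteins among the members because it is the residue that does the chemistry. The sequences are from the GENCODE M21 coding transcripts, 5′ to 3′, as DNA on the plus strand of mm10, with the selenocysteine codon in capitals. In Txnrd1 it is codon 612 of 613, the last but one, at chr10:82896037-82896039.
Txnrd1: atcctccagtctggctgcTGAggttaa
Gpx1: gagaatgtcgcgtctctcTGAggcaccacg
Gpx4: accaacgtggcctcgcaaTGAggcaaaact
In Gpx1 it is codon 47 of 201, at chr9:108339451-108339453. In the form of Gpx4 with the longest annotated coding sequence it is codon 129 of 253, at chr10:80054737-80054739. Each of the 3 reading frames held 1 in-frame TGA before its stop codon.

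Among the thioredoxin reductases Txnrd1 held 78.3% ± 0.78 of the TPM, Txnrd3, a form with a glutaredoxin domain best known from testis, 12.6% ± 0.69, and the mitochondrial Txnrd2 9.01% ± 0.17 (SD, n = 4). Txnrd1 was 8.45 to 8.93 times as abundant as Txnrd2, at 22.4 ± 0.574 TPM. The cytosolic reductase was thus the leading form in all 4 libraries.

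Txn1, cytosolic thioredoxin, was the most abundant of the 10 genes by summed exon length. Txn1 (ENSMUSG00000028367.5, chromosome 4, 57943373 to 57956411, minus strand) had 1149, 1213, 1176 and 1206 TPM. Its mean of 1186 ± 29.3 TPM (SD, n = 4) lay above 99.1% of detected genes. Replicate 1 was the lowest and replicate 2 the highest, and the CV was 2.47%, against 0.918% from counting.

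Txn1 exceeded Txn2, the mitochondrial thioredoxin, in every library, by 2.13 ± 0.022 on the log2(TPM + 1) scale (SD, n = 4; exact two-sided sign-flip p = 0.125). Txn2 averaged 270.2 ± 7.47 TPM, so Txn1 held 81.4% ± 0.23 of the TPM of the pair. Txnip, which binds thioredoxin and inhibits it, averaged 27.4 ± 1.8 TPM, and Txn1 was 40.9 to 47.5 times as abundant. With longest-transcript lengths the difference of Txn1 over Txn2 was 1.09 on the log2 scale.

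Of the 7 other thioredoxin-system genes listed, 6 reached 10 TPM in every library. Besides Txn2 and Txnip, the highest were Txndc17, a thioredoxin-like reductase, at 199 ± 3.7 TPM and Txnrd3 at 31.4 ± 1.46 TPM. The lowest was Srxn1, sulfiredoxin, which repairs over-oxidised peroxiredoxins: it had 0.717, 0.871, 1.25 and 1.63 TPM in replicates 1 to 4. All 4 values of Srxn1 were low, and the highest, in replicate 4, was more than double the lowest, in replicate 1.

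**Figure D2:**
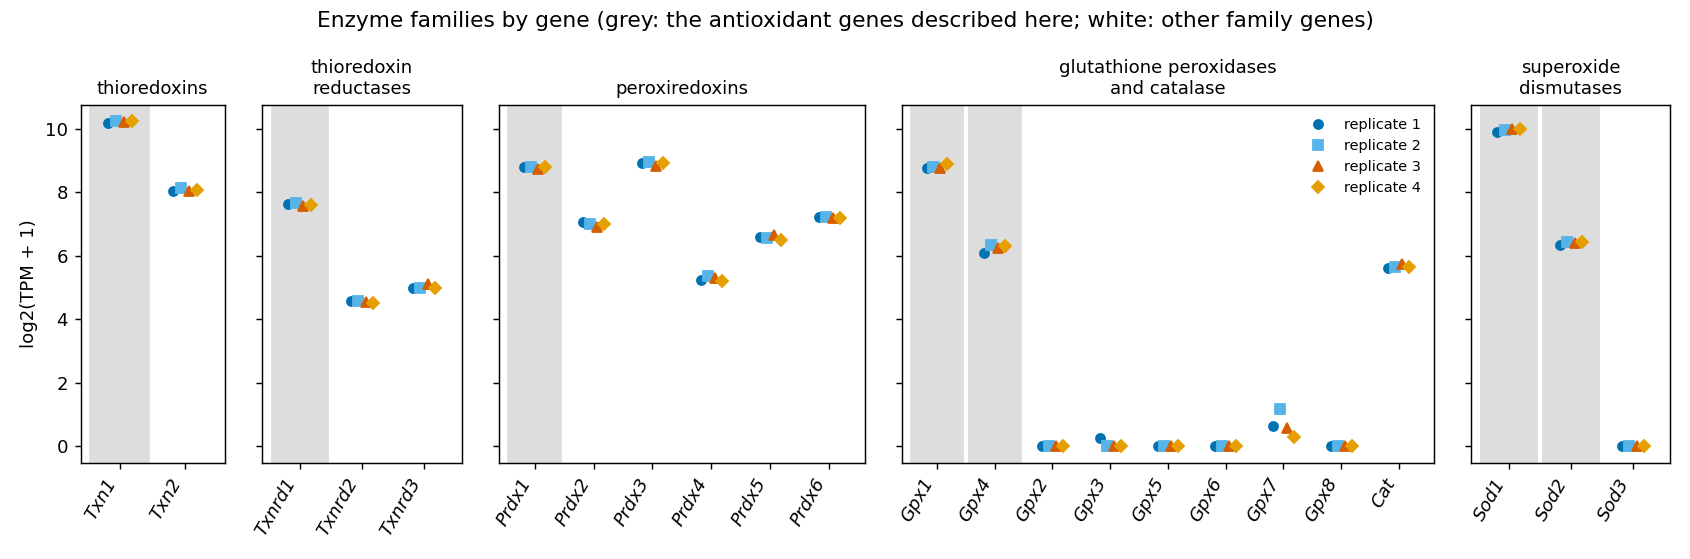
Level of every gene of 5 enzyme groups on the log2(TPM + 1) scale, with 1 point per replicate and grey columns for the members. Txn1, Txnrd1, Gpx1 and Sod1 lie highest in their panels, Prdx3 lies slightly above Prdx1, and Gpx2, Gpx5, Gpx6, Gpx8 and Sod3 lie at 0.

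Prdx1, the cytosolic peroxiredoxin that passes electrons from thioredoxin to hydrogen peroxide, and Gpx1, the cytosolic glutathione peroxidase, had overlapping levels. Prdx1 (ENSMUSG00000028691.12, chromosome 4, 116685544 to 116700822, plus strand) had 446.4, 439.3, 428.7 and 442.2 TPM, a mean of 439.2 ± 7.53 TPM (SD, n = 4). Gpx1 (ENSMUSG00000063856.7, chromosome 9, 108338903 to 108340343, plus strand) had 433.8, 439.7, 436.2 and 471.9 TPM, a mean of 445.4 ± 17.8 TPM (SD, n = 4). Replicates 1 to 3 of both genes overlapped, and replicate 4 of Gpx1 stood above all the rest. Gpx1 was higher than Prdx1 in 3 of 4 libraries, by 0.02 ± 0.056 on the log2(TPM + 1) scale (exact two-sided sign-flip p = 0.625). That difference is smaller than the spread between libraries.

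Prdx1 was not the highest peroxiredoxin by this measure. Prdx1 was lower than Prdx3, the mitochondrial form, in all 4 libraries, by 0.13 ± 0.037 on the log2(TPM + 1) scale, with Prdx3 at 479 ± 19 TPM (SD, n = 4; exact two-sided sign-flip p = 0.125). The direction depended on the gene length: with the longest coding transcript of each gene, Prdx1 exceeded Prdx3 by 0.28. Prdx1 was 3.36 to 3.6 times as abundant as Prdx2, the other typical cytosolic form, at 126 ± 5.67 TPM.

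The 5 other peroxiredoxins were all above 10 TPM in every library, and 3 of them were above 100 TPM in every library. Prdx6, which uses glutathione, averaged 146 ± 2.63 TPM, Prdx5, an atypical form of several compartments, 94.6 ± 4.27 TPM, and Prdx4, of the endoplasmic reticulum, 38.0 ± 2.14 TPM (SD, n = 4 each). Of the coding sequence of Prdx1, 44.3% of 50-base words also occur in other annotated transcripts, mainly processed copies. The copies Gm21399, Gm7204 and Gm15974 had 154, 51 and 0 fragments over the 4 libraries, against 9797 to 14790 fragments per library for Prdx1. If fragments with several alignments were left out, which the file headers do not state, Prdx1 and its copies are undercounted. Scaled to its unshared words alone, Prdx1 came to 482.3 ± 8.28 TPM, a length chosen after the data were seen. Prdx3 was not rescaled in this way, so its order with Prdx1 on that scale was not tested.

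Gpx1 was also the leading glutathione peroxidase, with 85.5% ± 0.81 of the family's TPM (SD, n = 4), and Gpx4, which reduces lipid peroxides within membranes, held 14.4% ± 0.78. Gpx4 (ENSMUSG00000075706.10, chromosome 10, 80047166 to 80056439, plus strand) had 67.24, 79.23, 75.4 and 78.47 TPM, a mean of 75.08 ± 5.49 TPM (SD, n = 4). Replicate 1 was the lowest, and replicates 2 to 4 lay close together. Gpx1 exceeded Gpx4 in every library, by 2.56 ± 0.091 on the log2(TPM + 1) scale, a ratio of 5.55 to 6.45 (exact two-sided sign-flip p = 0.125).

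The level of Gpx4 is uncertain, since 50.9% of the 50-base words of its coding sequence also occur in other annotated transcripts. Gpx4-ps2, a processed copy, had 48 fragments over the 4 libraries. If fragments with several alignments were left out, which the file headers do not state, Gpx4 is undercounted. Scaled to its unshared words alone, Gpx4 came to 154.4 ± 11.3 TPM, a length chosen after the data were seen. On that scale Gpx1 exceeded Gpx4 by 1.52 on the log2 scale, a ratio of 2.7 to 3.14, and their shares of the family were 74.2% ± 1.2 for Gpx1 and 25.7% ± 1.2 for Gpx4 (SD, n = 4). Sod2 was lower than Gpx4 there, where it was higher with summed exon lengths.

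Catalase, which disposes of peroxide without a thiol, was a minor transcript beside Gpx1. Cat averaged 49.7 ± 1.95 TPM (SD, n = 4), and Gpx1 was 8.33 to 9.55 times as abundant. Of the 7 other glutathione peroxidases and catalase listed, Cat was the 1 gene that reached 1 TPM in every library. Gpx7, a form of the endoplasmic reticulum, averaged 0.634 ± 0.451 TPM, and Gpx3, the secreted form, had 4 fragments in all. Gpx2, Gpx5, Gpx6 and Gpx8 had none, where 3 fragments in the shallowest library would be 0.384, 0.245, 0.321 and 0.403 TPM.

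Sod1, the copper-zinc dismutase of the cytosol, was far above Sod2, the manganese dismutase of mitochondria. Sod1 (ENSMUSG00000022982.9, chromosome 16, 90220742 to 90226322, plus strand) had 957.6, 990.2, 1026 and 1012 TPM, a mean of 996.3 ± 29.6 TPM (SD, n = 4), above 98.9% of detected genes. Sod2 (ENSMUSG00000006818.4, chromosome 17, 13007839 to 13018119, plus strand) had 80.1, 85.82, 84.42 and 85.81 TPM, a mean of 84.04 ± 2.7 TPM (SD, n = 4). Both genes were lowest in replicate 1, and no library of Sod1 came near any of Sod2. The ratio of Sod1 to Sod2 lay between 11.5 and 12.1, or 3.55 ± 0.031 on the log2(TPM + 1) scale (exact two-sided sign-flip p = 0.125).

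With longest-transcript lengths this difference was larger, at 4.16, but the Sod2 length used there, 5861 bases, exceeds its 3824 bases of counted exons. Sod1 held 92.2% ± 0.16 of the family's TPM (SD, n = 4), and Sod3, the secreted dismutase, had no fragment, where 3 fragments in the shallowest library would be 0.11 TPM. Ccs, the chaperone that loads copper into Sod1, averaged 57.0 ± 2.83 TPM, and Sod1 was 16.2 to 18.7 times as abundant. Of the coding sequence of Sod1, 32.9% of 50-base words also occur in other transcripts, and the copy Gm8566 had 9 fragments in all. As for Gpx4, Sod1 is undercounted if fragments with several alignments were left out. Scaled to its unshared words alone, Sod1 came to 1295 ± 38.5 TPM, a length chosen after the data were seen.

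Superoxide can be made on purpose by NADPH oxidases, and 4 of 12 genes listed for superoxide production and handling reached 10 TPM in every library. The highest were Cyba, the small membrane subunit of the oxidases, at 306 ± 12 TPM, Rac2, the small GTPase of the haematopoietic complex, at 291 ± 7 TPM, Ccs, and Ncf4, a cytosolic subunit, at 42.3 ± 2.68 TPM (SD, n = 4 each). Of the catalytic subunits, Duox1, Duox2 and Nox4 had no fragment. Cybb, the catalytic partner of Cyba in phagocytes, had 1 fragment in the 4 libraries, and Nox1 averaged 0.194 ± 0.0397 TPM (SD, n = 4), both named here after their values were seen.

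**Figure D3:**
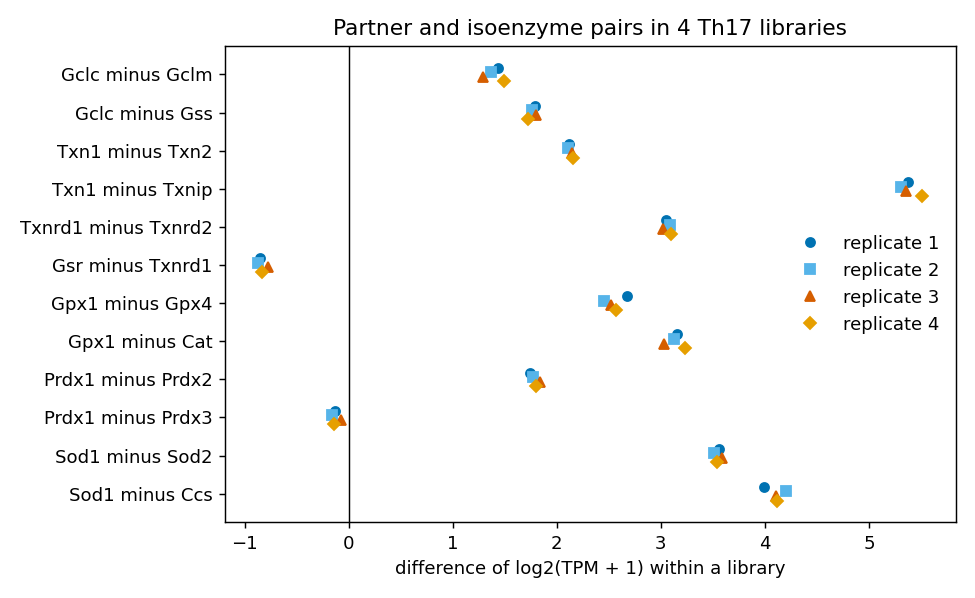
Differences between partner genes within each library on the log2(TPM + 1) scale, the first gene minus the second, with 1 point per replicate and a line at 0. Each of the 12 pairs keeps 1 side of 0 in the 4 libraries, with means from 5.39 for Txn1 minus Txnip to -0.83 for Gsr minus Txnrd1.

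All 12 contrasts between a member and its partner kept 1 direction in the 4 libraries. Each had the smallest exact p the design allows, 0.125, also after Benjamini-Hochberg adjustment over the 12. Their SD between libraries was 0.022 to 0.091 on the log2 scale.

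Variability between the 4 preparations was tested with edgeR's quasi-likelihood fit, which asks whether a gene's spread between replicates exceeds that of genes of its abundance. None of the 10 members passed at an adjusted p of 0.05, where 36 of 11847 genes tested did, or 0.304%, and 15 without replicate 4. At an unadjusted p under 0.05 it was 1 member, Gpx4, where 5.69% of tested genes were. None passed with limma or with DESeq2's dispersion outliers either.

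Gpx4 had the smallest p of the members, an unadjusted 0.0469 in edgeR's quasi-likelihood fit and 0.861 after Benjamini-Hochberg adjustment. Its log2 CPM (counts per 1000000) deviated from its mean by -0.17, 0.09, 0.00 and 0.07 in replicates 1 to 4, so the spread rested on replicate 1. Gclm came next in edgeR's quasi-likelihood fit (unadjusted p = 0.0893, adjusted p = 0.951), with deviations of -0.01, 0.04, 0.11 and -0.14. Gpx1, with replicate 4 high, had an adjusted p of 0.965 in edgeR's fit.

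The other 7 members had adjusted p-values of 0.993 to 0.999 in the edgeR fit. The dispersions of Gpx4, Gclm and Gpx1 stood at the 94.6, 90.7 and 89.7 percentiles of all tested genes. Gsr, Gclc and Prdx1 had dispersions at the 6.85, 9.5 and 23.6 percentiles, and Txnrd1 at 49. Sod1, Sod2 and Txn1 stood at 71.5, 76.7 and 66, and the median of the 10 members was 68.8. The median SD of log2 CPM was 0.047 over the members, 0.073 over tested genes and 0.045 over tested genes within the members' range of abundance. The median SD of the members was thus close to that of genes of their abundance.

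No library was low or high for all members. Replicate 1 was the lowest for 5 of the 10 genes and the highest for 2, and replicate 2 was the highest for 4 and the lowest for 0. Replicates 3 and 4, which stood apart in Xist and Ddx3y, were both above replicates 1 and 2 in Sod1 and both below them in Txnrd1, and the pairs overlapped in the other 8 members. Of the tested genes 35.0% had such pairs without overlap, so the 2 of 10 members were no more than that share.

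**Figure D4:**
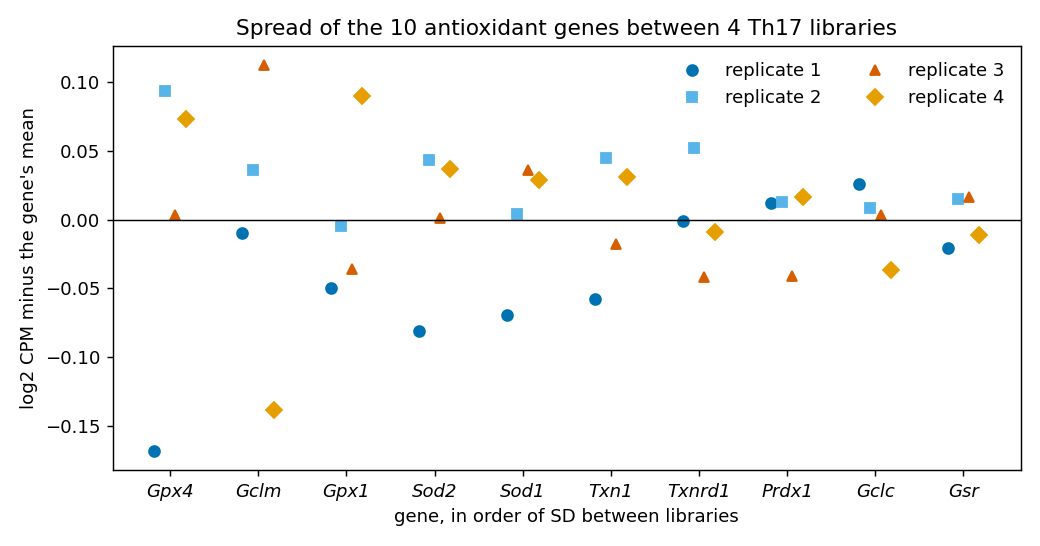
Deviation of each member's log2 CPM from its own mean over the 4 libraries, with 1 point per replicate, in order of the SD between libraries. Gpx4 in replicate 1 (-0.17) and Gclm in replicate 4 (-0.14) lie farthest from 0, and the points of Gsr lie closest together.

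The 3 genes whose pattern over the 4 libraries was most like that of Gpx4 were Sema4b, a semaphorin, Ptk2, focal adhesion kinase, and Ckap2, a spindle protein. The Euclidean distances of their log2 CPM deviations from those of Gpx4 were 0.01, 0.0185 and 0.0224, against a median of 0.248 over 11846 genes. The likeness is a description over 4 libraries, with no test.

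Transcription of many of these genes is known to be driven by NRF2, encoded by Nfe2l2, which binds antioxidant response elements and is held back by KEAP1. Nfe2l2 averaged 37.01 ± 0.535 TPM and Keap1 45.75 ± 1.36 TPM (SD, n = 4 each), both named after their values were seen. Of the 11 genes listed for NRF2 and its targets and regulators, 7 reached 10 TPM in every library. The highest were Cul3, the ligase scaffold that works with KEAP1, at 154 ± 3.51 TPM, Sqstm1, which binds KEAP1, at 139 ± 2.88 TPM, Nfe2l1, a relative of NRF2, at 132 ± 2.24 TPM, and Mafk, a partner of NRF2 on DNA, at 100.2 ± 3.52 TPM (SD, n = 4 each).

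Levels within the list ranged widely. Osgin1, the lowest of the list, had 4 fragments in all, where 3 in the shallowest library would be 0.153 TPM. Nqo1, a quinone reductase, averaged 0.867 ± 0.163 TPM, and Hmox1, haem oxygenase, 9.95 ± 1.02 TPM (SD, n = 4), both named after their values were seen. Other genes that NRF2 is known to raise lay on both sides. Sqstm1, above, and the pentose phosphate enzymes Tkt and Taldo1, described below, were abundant. Srxn1, at 1.115 ± 0.407 TPM (SD, n = 4), Slc7a11, with 7 fragments in all, and Me1, with 2 fragments in all, were low.

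The core of the antioxidant response element, TGACNNNGC, was searched on both strands of the RefSeq promoter windows (GRCm38.p6, 250 bases before to 50 after a gene's start), which held 13 windows of 8 members. A match was found for 4 of the 8 members, Txnrd1, Gclm, Prdx1 and Sod1, and in 12.4% of 32851 windows and 14% of 27025 genes in the table. For Txnrd1, which has several windows, the match lay in the window from base 82858956. Its windows from bases 82833701 and 82860091 held none. The windows of Txn1, Gpx1, Gpx4 and Sod2 held none. The stretches around the 4 matches are printed because the core is the sequence that NRF2 recognises, 5′ to 3′ on the plus strand, which is the gene's strand, with the core, here in its reverse complement, in capitals.
Txnrd1, chr10:82859094-82859142: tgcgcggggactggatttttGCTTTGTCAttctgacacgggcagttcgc
Gclm, chr3:122245403-122245451: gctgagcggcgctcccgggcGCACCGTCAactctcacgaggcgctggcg
Prdx1, chr4:116685446-116685494: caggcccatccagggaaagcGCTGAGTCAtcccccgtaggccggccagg
Sod1, chr16:90220686-90220734: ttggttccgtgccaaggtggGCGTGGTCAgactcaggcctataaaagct
A match of these letters is a description of the window and not a measured site of binding. Among genes that NRF2 is known to raise, the windows of Nqo1, Slc7a11 and Osgin1 held no match either. That of Srxn1 held 1, at base 29 from its start. A window without a match therefore says little about regulation by NRF2.

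Levels did not sort by the match: Prdx1 and Sod1, with a match, were among the highest members and Gclm, with one, was the lowest, while Txn1, without one, was the highest. No test was made of this, since only 8 members have a window.

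NADPH feeds both reductases, and 9 of 11 genes listed for NADPH supply reached 10 TPM in every library. The highest were the pentose phosphate enzymes Tkt, at 284 ± 3.49 TPM, and Taldo1, at 191 ± 3.43 TPM, the mitochondrial malic enzyme Me2, at 273 ± 14.6 TPM, and Nadk, the NAD kinase, at 204 ± 4.58 TPM (SD, n = 4 each). Tkt and Taldo1 do not make NADPH themselves. The pentose phosphate enzymes that do, G6pdx and Pgd, averaged 103.4 ± 2.03 and 79.3 ± 1.76 TPM (SD, n = 4 each). Both were named after their values were seen. Me1, the cytosolic malic enzyme, was the lowest of the list, with 2 fragments in all. All 7 genes listed for selenium use reached 1 TPM in every library and 6 of them 10 TPM, from Sephs2, which makes selenophosphate, at 168 ± 6.82 TPM to Pstk, the kinase of the selenocysteine tRNA, at 4.75 ± 0.59 TPM (SD, n = 4 each). Between them lay Trnau1ap, a partner of that tRNA, at 101.5 ± 3.04 TPM, the elongation factor Eefsec at 55.4 ± 2.26 TPM and Secisbp2, which binds the selenocysteine insertion element, at 55.2 ± 2.32 TPM.

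Of the 15 other selenoproteins listed, 10 reached 10 TPM in every library, led by Selenow at 262 ± 10.5, Selenot at 231 ± 7.18, Selenos at 129 ± 4.59 and Selenof at 119 ± 5.55 TPM (SD, n = 4 each). In all 4 libraries Gpx1 was above each of these, and Txnrd1 was above Selenos and Selenof and below Selenow and Selenot. The deiodinases Dio1 and Dio3 had no fragment. Of the 14 genes listed for glutathione use, 6 reached 10 TPM in every library, led by the glutaredoxins Glrx5, of mitochondria, at 247 ± 5.44 TPM and Glrx3 at 88.0 ± 2.72 TPM and the transferases Gstp1 at 192 ± 4.3 TPM and Gsto1 at 68.5 ± 2.47 TPM, while Mgst1, a membrane-bound transferase, had no fragment. Of the 10 listed for lipid peroxidation and iron, 5 did, led by the ferritin chains Fth1 at 1578 ± 49 TPM and Ftl1 at 469 ± 23.7 TPM, the transferrin receptor Tfrc at 896 ± 6.7 TPM and the lipid-activating enzyme Acsl4 at 273 ± 1.35 TPM (SD, n = 4 each). The ferritin genes have near-identical copies in the genome, so their levels are uncertain. The lipoxygenases Alox5 and Alox12 had no fragment.

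Over all 11 lists together, 64 of 112 other genes of the pathway reached 10 TPM in every library and 28 reached 100 TPM, while 13 had no fragment. Of the 85 that could be tested, none passed the edgeR variability test after Benjamini-Hochberg adjustment, and 3, Me2, Selenoh and Ftl1, were at an unadjusted p under 0.05.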

How the data were processed

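The 4 RNA-seq libraries of mouse Th17 cells, all in 1 group, were analysed. The deposited counts are fragments per gene, made per the file headers with featureCounts 1.4.6-p4 over GENCODE M13 exons, with strand option 2 (reverse) and both ends aligned. The build is mm10 per the labels. The options for fragments with several alignments or several genes are not in the headers. The headers' alignment names carry the tag star2, with no version of the aligner. The assay is titled total RNA-seq, while the linked library protocol is named for polyA+ RNA.

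TPM was computed as count over summed exon length, scaled to 1000000 per library. A gene with long exons that the cells do not use comes out too low on this scale. Libraries held 24696730 to 37025016 fragments. A floor of 3 fragments and the counting CVs cover counting error only. Symbols came from GENCODE M21 (50376 of 50600 identifiers matched, and all 153 listed symbols).

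The spread between replicates was examined on R 4.3.3 with edgeR 4.0.16 on the counts as deposited (TMM, filterByExpr, an intercept-only quasi-likelihood fit with a robust prior). The ratio of a gene's dispersion to its trended prior gave an upper-tail F test, with Benjamini-Hochberg adjustment over 11847 genes. The test was tested on simulated data first. Differences within a library used log2(TPM + 1) and an exact two-sided sign-flip test. Shared sequence was the share of 50-base words found in other genes' M21 transcripts. The words were those of all of a member's protein-coding transcripts, or those of its longest coding sequence.

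The members and lists were chosen with earlier results of these data known. The named genes were the 10 members, the 4 highest and the lowest of each list, the genes of the contrasts and the 3 genes closest in pattern to the member with the smallest p. Nfe2l2, Keap1, Nqo1, Hmox1, Cybb, Nox1, Selenoh, G6pdx and Pgd were named outside that rule, after their values were seen. Alternatives were DESeq2 1.42.0 size factors and dispersion outliers, limma 3.58.1, no filter, a pseudocount of 0.1, TPM without mitochondrial and ribosomal genes, longest coding transcripts as lengths and leaving out each replicate. The transcript lengths came from GENCODE M21, while the counts are over M13 exons. A length without shared words was added after seeing the data, for the members alone.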

Additional observations from a re-analysis of the deposited data

Results flagged for a closer look

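Of 87 groups of 4 libraries examined for a library far from the other 3, 5 were picked out. Chance alone picks about 1 in 20 such groups, or 4.3 of 87, which is only a rough guide here. Genes with no fragment in any library are counted in the 87 but could not be picked. Groups also share genes, and the pair of Gsr and Txnrd1 enters in both directions.

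Among the members it was Gpx1, with 472 TPM in replicate 4, where the other libraries had 434 to 440 TPM. The value is the highest of the 4 and sets the order of Gpx1 over Prdx1 in mean level.

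Of the partner genes, Prdx3 was lowest in replicate 3, with 451 TPM, where the others had 487 to 490 TPM. Txnrd3 was highest in the same library, with 33.6 TPM, where the others had 30.5 to 30.8 TPM. Gpx3 had 0.203 TPM in replicate 1 and no fragment in the others, and Me1 had 0.0476 TPM in replicate 4 and no fragment in the others. These last values are at or below a few fragments in all.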

How the results depend on the processing

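The count of 36 genes called variable was 94 with no filter on low counts, 65 by DESeq2's dispersion outliers and 15 to 37 when each replicate was left out, with 15 without replicate 4. No member was called under any of these, nor with DESeq2 size factors or limma. With longest coding transcripts as lengths, the difference of Prdx1 minus Prdx3 was 0.281, against -0.13 as reported, and that of Sod2 minus Gpx4 was -1.223, against 0.16. The Sod2 transcript of 5861 bases is longer than its 3824 bases of counted exons, so that reversal cannot be read as an order of levels. With lengths free of shared words, a choice made after seeing the data, Txn1 minus Sod1 was -0.091, Gpx1 minus Prdx1 was -0.116 and Sod2 minus Gpx4 was -0.845. The first and last of these were positive in every library as reported. Gpx1 minus Prdx1 lay between -0.005 and 0.040 when each replicate was left out, and was negative without replicate 4. The lengths themselves differ by construction between these alternatives, and which is nearest to the transcripts present was not tested. The other 11 contrasts between partner genes kept their direction under every alternative run on them. Lengths free of shared words were run only on those between members: Gclc and Gclm, Gsr and Txnrd1, Gpx1 and Gpx4, and Sod1 and Sod2. No paired analysis was possible because there was 1 group. Depth limits statements on genes under about 3 fragments per library, and with 4 libraries the exact sign-flip test cannot give a p below 0.125.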
